A study of Mus musculus with 96 samples.

Results

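The acute phase transcripts described here come from 10 genes, chosen by name from a deposited table of 55421 gene identifiers: the serum amyloid A genes Saa1, Saa2 and Saa3, haptoglobin (Hp), the orosomucoids Orm1 and Orm2, lipocalin 2 (Lcn2) and the fibrinogen chain genes Fga, Fgb and Fgg. All 10 were found in the table and all 10 passed the filter on low counts. The acute phase response is the change in liver protein secretion that follows infection, injury or other inflammation. Cytokines such as interleukin 6 and interleukin 1, released largely by macrophages, act on hepatocytes through STAT3, NF-kappa B and C/EBP factors, and the liver then secretes proteins that bind lipid, haem, iron and drugs or that clot blood. Serum amyloid A is low in the resting mouse and very strongly inducible, whereas fibrinogen and haptoglobin are abundant plasma proteins at rest.

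The 96 libraries hold liver mRNA of mice aged 12 to 16 weeks, sampled at 6 times of day from ZT0 to ZT20 (ZT, zeitgeber time, counts hours from lights on). The Bmal1 line and the Cry line (Cry1 and Cry2) each had wild type (WT) and knockout (KO) mice, fed either ad libitum (AL) or with food restricted to the night (RF), which makes 8 groups of 12 libraries. In the circadian clock BMAL1 (gene Arntl) activates transcription, and the cryptochromes CRY1 and CRY2 repress it. The labels give no allele, sex, Cre driver or other treatment, and each group and time held 2 libraries, 1 from each of 2 numbered replicate series. They do not say that the libraries of a group came from separate mice, so p-values measure the spread between libraries. Nor do they say what a series number stands for; Bmal1 KO and WT share their numbers within a feeding, and the other groups compared share 1 or none.

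The members sit in clusters in the mouse genome (mm10). Saa1 (chr7:46740497-46742980, minus strand), Saa2 (chr7:46751790-46754313, plus strand) and Saa3 (chr7:46711998-46715700, minus strand) are neighbours on chromosome 7. Orm1 (chr4:63344560-63348163) and Orm2 (chr4:63362449-63365878) lie on the plus strand of chromosome 4. Fgg (chr3:83007724-83015049, plus strand), Fga (chr3:83026076-83033627, plus strand) and Fgb (chr3:83040141-83049863, minus strand) form the fibrinogen cluster of chromosome 3. Hp (chr8:109575128-109579172) and Lcn2 (chr2:32384633-32388252) stand alone, both on the minus strand.

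RefSeq promoters of GRCm38.p6, running from 250 bases before to 50 bases after the annotated start and read 5′ to 3′ on the gene's strand, were found for 8 of the 10 genes, not for Orm1 or Hp. Those of Saa1 and Saa2 are shown because these neighbours had nearly the same promoter and moved together between libraries, and the 3 fibrinogen promoters because the chains are made for 1 protein from neighbouring genes. Capitals mark matches, on either strand, to 4 motifs of acute phase factors. These are C/EBP (TTGCNNAA), the core of an IL-6 response element (CTGGGAA), an HNF1 core (GTTAAT) and a kappa B consensus, and no marked match overlapped a match to another motif. A match is a description of the letters, not a site of binding.
Saa1 (chr7:46742931-46743230, minus): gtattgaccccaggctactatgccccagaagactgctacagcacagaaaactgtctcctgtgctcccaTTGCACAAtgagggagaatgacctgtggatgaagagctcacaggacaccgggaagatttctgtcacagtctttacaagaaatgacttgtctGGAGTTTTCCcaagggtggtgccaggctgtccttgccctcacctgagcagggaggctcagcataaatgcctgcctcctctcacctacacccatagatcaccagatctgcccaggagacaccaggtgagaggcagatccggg
Saa2 (chr7:46751583-46751882, plus): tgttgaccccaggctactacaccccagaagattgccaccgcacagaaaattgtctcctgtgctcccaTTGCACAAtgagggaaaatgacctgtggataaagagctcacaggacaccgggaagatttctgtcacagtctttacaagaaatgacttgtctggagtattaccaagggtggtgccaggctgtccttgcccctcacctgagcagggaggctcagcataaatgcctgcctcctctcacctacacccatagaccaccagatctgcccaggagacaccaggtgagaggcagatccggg
Fga (chr3:83025903-83026202, plus): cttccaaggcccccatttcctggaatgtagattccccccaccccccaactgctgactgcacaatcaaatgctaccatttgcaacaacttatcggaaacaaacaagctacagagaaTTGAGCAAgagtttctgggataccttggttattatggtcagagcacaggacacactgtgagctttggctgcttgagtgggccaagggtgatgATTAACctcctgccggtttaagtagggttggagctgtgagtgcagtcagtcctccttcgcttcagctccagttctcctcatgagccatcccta
Fgb (chr3:83049814-83050113, minus): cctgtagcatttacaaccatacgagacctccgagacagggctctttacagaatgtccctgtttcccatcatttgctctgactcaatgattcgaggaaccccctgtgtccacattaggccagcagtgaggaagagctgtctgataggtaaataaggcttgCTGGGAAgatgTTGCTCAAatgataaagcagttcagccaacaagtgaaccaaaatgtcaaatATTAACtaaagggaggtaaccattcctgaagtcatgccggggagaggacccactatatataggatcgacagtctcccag
Fgg (chr3:83007474-83007773, plus): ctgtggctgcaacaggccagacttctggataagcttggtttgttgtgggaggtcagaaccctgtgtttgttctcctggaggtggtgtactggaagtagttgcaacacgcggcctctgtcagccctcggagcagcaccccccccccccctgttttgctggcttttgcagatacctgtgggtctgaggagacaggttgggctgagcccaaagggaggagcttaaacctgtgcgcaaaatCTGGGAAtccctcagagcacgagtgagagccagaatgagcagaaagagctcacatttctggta

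Counted from the RefSeq start (-1 is the base before it), Saa1 held a C/EBP match at -182 to -175 and a kappa B match at -91 to -82. Saa2 held the C/EBP match at -183 to -176 and no kappa B match, although the promoters were 95.3% identical over their alignment. Saa3 held C/EBP at -99 to -92 and kappa B at -81 to -72. Lcn2 held C/EBP at -216 to -209 and kappa B at -102 to -93 and at -43 to -34, and Orm2 held C/EBP at -120 to -113. Among the fibrinogen chains, Fgb held the IL-6 response letters at -91 to -85, C/EBP at -80 to -73 and the HNF1 core at -29 to -24. Fga held C/EBP at -135 to -128 and the HNF1 core at -43 to -38, and Fgg held the IL-6 response letters at -13 to -7. In 32851 RefSeq promoters of this length, 10.8% held the C/EBP letters, 11.1% the IL-6 response letters, 7.1% the HNF1 core and 26.8% the kappa B consensus. Identity between the fibrinogen promoters was 42.7% to 47.6%.

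Total counts ran from 1478963 to 35568856 per library, with a median of 25422366. The targeted genes still had counts in the knockouts: Arntl, which encodes BMAL1, was at 9.71 to 21.2 CPM (counts scaled to library size, median 13.7) in the 24 Bmal1 KO libraries and at 0.272 to 45.0 CPM (median 22.3) in Bmal1 WT, Cry1 was at 5.38 to 12.7 CPM (median 8.87) in Cry KO and at 5.95 to 71.4 CPM (median 22.4) in Cry WT, and Cry2 was at 13.1 to 32.0 CPM (median 24.2) and 18.9 to 60.7 CPM (median 39.4). Their ranges overlapped. The counts cover whole genes, and the deleted part is not given in the sources used here, so these levels do not check each library's label. Summed levels of 6 hepatocyte markers were highest of all marker lists in every group, with group medians from 44299 to 103540.0 CPM, at 34984 to 57210.0 CPM in the Bmal1 KO and 51340 to 122271 CPM in the Bmal1 WT libraries. Gene by gene, 2 of these 6 were called lower in Bmal1 KO than in WT under AL, where 10.7% of all genes were. Under RF 1 was lower, where 20.6% of genes were called in either direction. The median log2 fold changes of the 6 were -0.07 and -0.05. In bulk liver, fewer cells of a type and less RNA per cell cannot be told apart. Of the 9 neutrophil markers 4 passed the filter on low counts, and no marker of the Kupffer cell, neutrophil or hepatocyte lists was at 0 in all libraries. Exocrine pancreas markers summed to at most 749 CPM in series 5 of Cry KO RF and to 161 CPM in 1 library of series 4 of Cry WT AL. Their part in the results was not tested.

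The members fell into a wide-ranging and a narrow-ranging set. Levels below are counts normalised for library size, in CPM. Saa1 ran from 2.34 to 21931 CPM over the 96 libraries with a median of 45.7 CPM, a 9375-fold range. Saa2, which like Saa1 encodes a circulating apolipoprotein of inflammation, ran from 1.47 to 21599 CPM with a median of 11.7 CPM. Lcn2, whose product withholds iron by binding bacterial siderophores, ran from 0.844 to 4008 CPM with a median of 5.87 CPM. These 3 transcripts were therefore low in most libraries and among the abundant ones in a few. Saa3 (0.536 to 428 CPM, median 2.80) spanned 798-fold and Orm2 (4.91 to 3527 CPM, median 13.5) 718-fold. Hp, which binds free haemoglobin, ran from 1182 to 18099 CPM with a median of 1964 CPM, and Orm1, a plasma carrier of basic and lipophilic molecules, from 332 to 6904.5 CPM with a median of 611 CPM. The fibrinogen chains, which polymerise into the clot, had the narrowest ranges: Fga spanned 5.70-fold (2538 to 14460.5 CPM), Fgb 5.60-fold (2418 to 13537 CPM) and Fgg 5.61-fold (1429 to 8014 CPM).

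Per kilobase of transcript the order of the median levels was Fga (2264 CPM per kb), Fgg (1539), Hp (1460), Fgb (1090), Orm1 (788), Saa1 (75.1), Saa2 (19.3), Orm2 (17.4), Lcn2 (6.42) and Saa3 (5.05). Lengths were those of 1 annotated transcript per gene, such as 3810 bases for Fgb, 1695 for Fgg and 1345 for Hp. The order depends on that choice of transcript. Neighbours in this order overlapped over the 96 libraries. Summed, the CPM of the 10 genes made up 0.879% to 11.2% of the scaled library size, with a median of 1.38%. The fibrinogen chains made up 0.639% to 3.60% of it, with a median of 1.15%. The scaled size includes a TMM factor per library, so these are not shares of raw counts. Saa1 and Saa2 transcripts were 93.9% identical but shared 0 of 510 windows of 100 bases, whereas Orm1 and Orm2, 91.0% identical, shared 47 of 676. How reads that fit more than one copy were counted is not given in the sources used here, so the Orm1 and Orm2 counts, and those of Orm3, are uncertain to that extent.

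**Figure D1:**
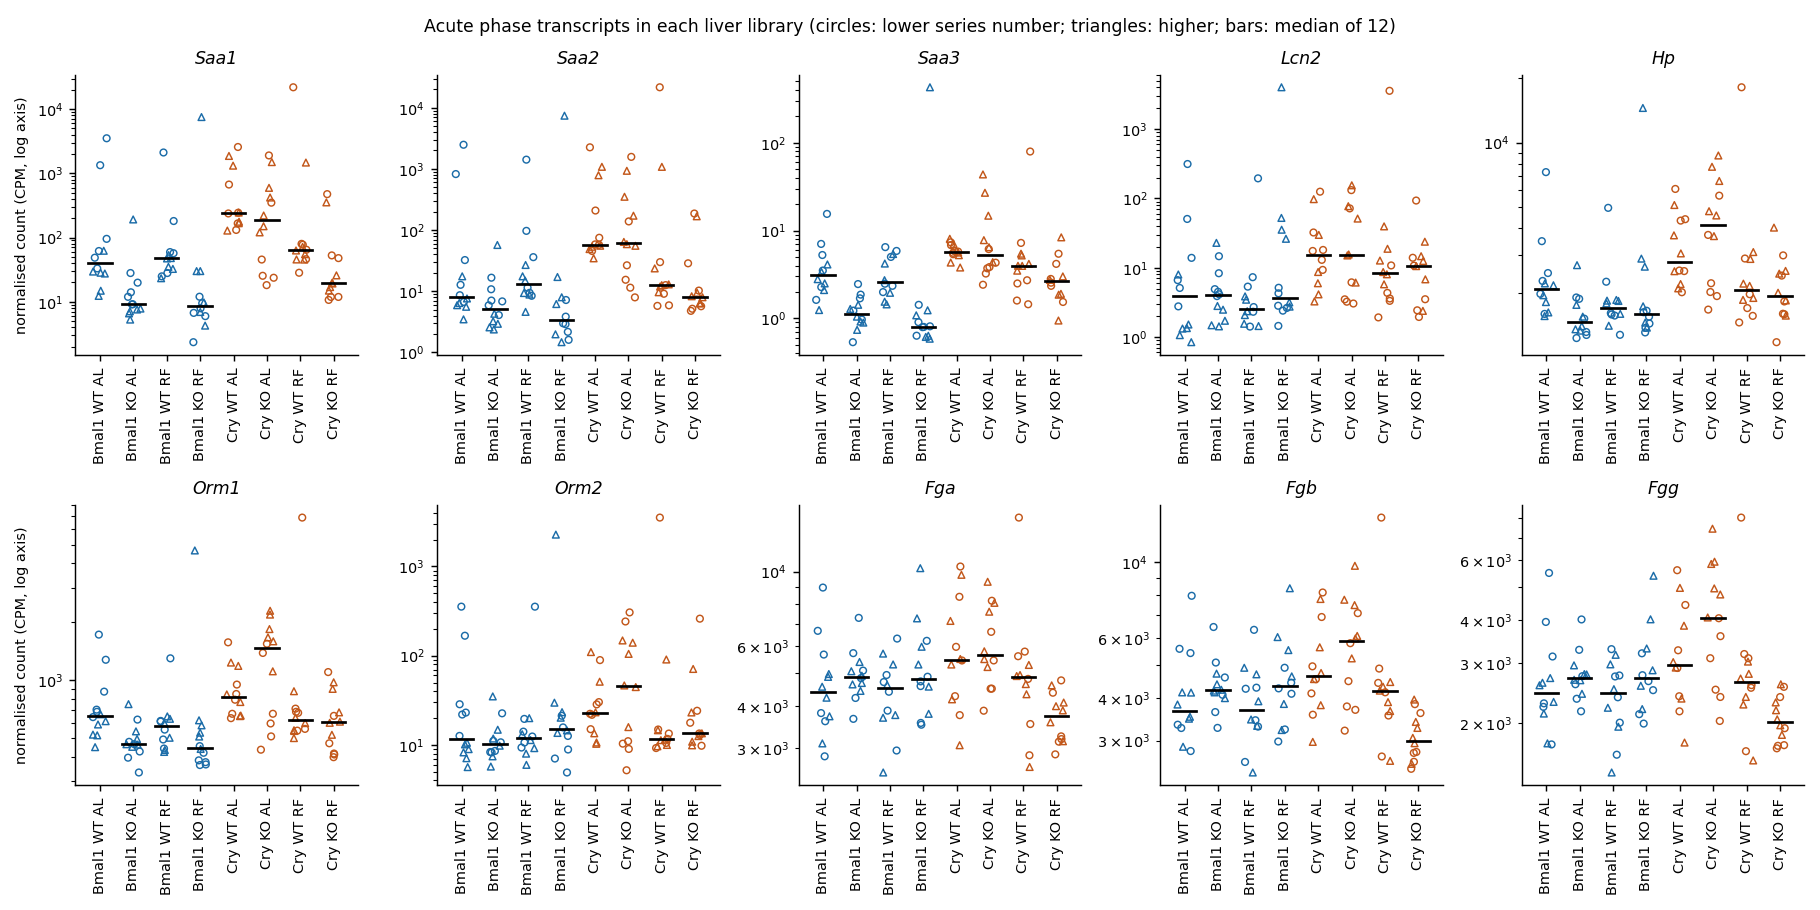
Normalised count (CPM, log axis) of each of the 10 genes in every library, by line, genotype and feeding; circles and triangles are the lower and higher series number of a group, and bars are medians of 12. Saa1, Saa2 and Lcn2 spread more than 10-fold within every group, while Fga, Fgb and Fgg stay within 6-fold over all 96 libraries.

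Saa1 differed between groups in how many libraries were raised as well as in the median. In Bmal1 KO AL, Saa1 had its lowest library at 5.26 CPM, its median at 9.11 CPM and its highest at 191 CPM, against 12.3, 40.7 and 3519 CPM in Bmal1 WT AL. Under RF the lowest, median and highest were 2.34, 8.68 and 7533 CPM in Bmal1 KO and 23.2, 47.5 and 2113 CPM in Bmal1 WT. The Bmal1 groups overlapped, with 1 of 12 libraries above 100 CPM in each KO group and 2 of 12 in each WT group. Both KO medians lay below the lowest WT library of their feeding. In the Cry line, WT AL ran from 128 to 2574 CPM with a median of 240 CPM, and all 12 of its libraries were above 100 CPM. Cry KO AL ran from 18.1 to 1901 CPM (median 185), Cry WT RF from 28.3 to 21931 CPM (median 63.6) and Cry KO RF from 10.7 to 474 CPM (median 19.5). Of the 96 libraries 30 were above 100 CPM, and 20 of these 30 were AL libraries of the Cry line. The series of Cry KO AL differed: the median of series 1 was 35.4 CPM and that of series 2 was 320 CPM.

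Saa2 had a like order of groups. Its medians were 5.08 CPM in Bmal1 KO AL, 3.42 in Bmal1 KO RF, 8.11 in Bmal1 WT AL and 13.2 in Bmal1 WT RF, and 61.4 in Cry KO AL, 8.12 in Cry KO RF, 57.9 in Cry WT AL and 12.6 in Cry WT RF. Saa3, the serum amyloid expressed by macrophages and adipocytes as well as by liver, was at 0.536 to 2.46 CPM (median 1.14) in Bmal1 KO AL and at 1.24 to 15.5 CPM (median 3.08) in Bmal1 WT AL. In Bmal1 KO RF 11 of 12 Saa3 values were 0.587 to 1.43 CPM and 1 was at 428 CPM, while Bmal1 WT RF ran from 1.44 to 6.48 CPM with a median of 2.60 CPM. The Cry medians of Saa3 were 5.26 CPM (KO AL), 2.65 (KO RF), 5.69 (WT AL) and 3.96 (WT RF).

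The plasma carriers were highest in Cry KO AL. Hp had a median of 4157 CPM there (1675 to 8720 CPM), against 2801 CPM in Cry WT AL, 2067 in Cry WT RF and 1927 in Cry KO RF. The Bmal1 medians of Hp were 2078 CPM (WT AL), 1701 (WT RF), 1461 (KO AL) and 1591 (KO RF). Orm1 was at a median of 1458 CPM in Cry KO AL and at 447 to 816 CPM in the 7 other groups. Orm2 was at a median of 45.4 CPM in Cry KO AL, and Lcn2 at 15.3 CPM, close to its 15.2 CPM in Cry WT AL. Series 2 of Cry KO AL carried most of this: Hp medians were 5720 CPM in series 2 and 2122 CPM in series 1, and Orm1 medians 1745 and 632 CPM.

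The fibrinogen chains had their highest medians in Cry KO AL and their lowest in Cry KO RF. In Cry KO AL the 12 Fgg values ran from 2025 to 7432 CPM (median 4067), and in Cry KO RF they ran from 1683 to 2595 CPM (median 2007). Medians in Cry KO AL and RF were 5653 and 3726 CPM for Fga and 5886 and 3002 CPM for Fgb. In the 6 other groups the medians were 4392 to 5479 CPM for Fga, 3676 to 4642 CPM for Fgb and 2440 to 2960 CPM for Fgg, and their ranges overlapped. All 6 Fgg values of Cry KO AL series 2 (4077 to 7432 CPM) were above all 6 of series 1 (2025 to 4056 CPM), and also above every Cry KO RF value.

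The extreme values of all members came from a few libraries. There were 11 libraries above 1000 CPM of Saa1: 3 in Cry WT AL, 2 each in Bmal1 WT AL, Cry KO AL and Cry WT RF, and 1 each in Bmal1 KO RF and Bmal1 WT RF. Only 2 were above 5000 CPM, the threshold set for this description: the Cry WT RF library of series 6 at ZT12 (21931 CPM) and the Bmal1 KO RF library of series 4 at ZT0 (7533 CPM). The next below the threshold was the Bmal1 WT AL library of series 1 at ZT4 (3519 CPM). In the Cry WT RF library Saa2 was at 21599 CPM, Hp at 18099, Fga at 14460.5, Fgb at 13537, Fgg at 8014, Orm1 at 6904.5, Lcn2 at 3563, Orm2 at 3527 and Saa3 at 79.4 CPM. The Bmal1 KO RF library had less of most members but more Saa3 (428 CPM) and Lcn2 (4008 CPM). All 10 members were higher in both libraries than in the other library of the group and time.

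Against the other library of the same group and time, the Cry WT RF library held 482-fold more Saa1, 1720-fold more Saa2, 353-fold more Orm2, 443-fold more Lcn2, 19.0-fold more Saa3, 13.8-fold more Orm1 and 8.38-fold more Hp, and 3.12- to 3.54-fold more of the fibrinogen chains. For the Bmal1 KO RF library the folds were 3220 (Saa1), 4618 (Saa2), 462 (Orm2), 1666 (Lcn2), 674 (Saa3), 12.8 (Orm1) and 9.34 (Hp), and 2.55 to 2.88 for the fibrinogen chains. The order was alike in both, with Saa1, Saa2, Orm2 and Lcn2 far ahead of Hp and Orm1 and the fibrinogen chains last, except that Saa3 stood with the first of these in the Bmal1 KO RF library and nearer to Orm1 in the other. Partner libraries were at 45.5 and 2.34 CPM of Saa1, so the excursion was not shared within the group and time.

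Markers of other cells moved with these libraries. The Cry WT RF library had the highest sums of all 96 for 7 Kupffer cell markers (901 CPM, series median 271), 9 neutrophil markers (149 CPM, series median 1.49), 5 stellate markers (363 CPM, series median 222) and the cytokines Il6, Il1a, Il1b, Tnf, Osm and Lif (16.5 CPM, series median 5.06). Its hepatocyte marker sum was the lowest of its group (43164 CPM, group median 90847). This sum includes Alb and Ttr, which are listed below among the negative acute phase genes. In the Bmal1 KO RF library the Kupffer cell sum was 453 CPM (series median 130), the neutrophil sum 22.3 CPM (series median 1.25) and the hepatocyte sum 57210.0 CPM, the highest of its group. Their part in the levels of the members was not tested.

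Mean levels over the 6 times were compared with edgeR's quasi-likelihood test, fitted over 15772 genes and all 96 libraries, and a gene was called at a Benjamini-Hochberg adjusted p under 0.05 over all genes. Fold changes are log2 with their standard errors. Under AL, the Bmal1 KO had lower serum amyloid transcripts: Saa1 fell by 3.06 ± 0.81 (adjusted p = 0.00362), Saa2 by 2.57 ± 0.87 (adjusted p = 0.0244) and Saa3 by 1.64 ± 0.50 (adjusted p = 0.0114). These were 3 of 10 members, where 10.7% of all genes were called lower. Hp (-0.60 ± 0.27), Orm1 (-0.62 ± 0.29), Orm2 (-1.35 ± 0.63) and Lcn2 (-1.11 ± 0.82) were not called, and Fga, Fgb and Fgg differed by 0.07 to 0.11. The members' median was -0.87 against 0.02 over all genes. Without the 2 libraries above 5000 CPM, 6 members were called lower, where 11.6% of genes were. Hp (-0.61, adjusted p = 0.0373), Orm1 (-0.63, adjusted p = 0.0269) and Orm2 (-1.36, adjusted p = 0.0488) were added. Those 2 libraries belong to neither group but enter the shared estimate of the spread. They were left out for their Saa1 level, with which the other members moved, so the added calls are a description and not a test. All 3 serum amyloid calls made with all libraries were lost without series 1 of Bmal1 WT AL, the series of the libraries at 3519 and 1339 CPM of Saa1. In that fit Saa1 was at -0.69 (adjusted p = 0.694), Saa2 at 0.14 and Saa3 at -1.05. With the replicate series as a random effect (limma-voom) 0 of the 3 were called. By series, Saa1 medians were 13.0 and 7.32 CPM in the KO and 78.5 and 27.9 CPM in WT.

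Under RF no member was called in the Bmal1 KO, where 20.6% of genes were, and 1 member (Lcn2) had an unadjusted p under 0.05 (1 member was called by DESeq2). Saa1 differed by -1.48 ± 0.78 (adjusted p = 0.183) and Lcn2 by 2.11 ± 0.86 (adjusted p = 0.0731). The KO group held the library at 7533 CPM of Saa1. Without both libraries above 5000 CPM, Saa1 was at -3.27, Saa2 at -3.01, Saa3 at -1.97 and Lcn2 at 0.49. The fit then put 3 members past the threshold, where 10.5% of genes were called lower, but a KO library had been left out for its high Saa1, so these values are a description and not a test of lower levels in the KO. A difference of the KO effect between RF and AL was called for no member (0 called, 0% of all genes, edgeR). At an unadjusted p under 0.05 were 3 members and 1036 genes, with Lcn2 at 3.22 ± 1.19 and Orm2 at 2.10 ± 0.89.

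In the Cry line under AL no member was called, where 33% of all genes were. Fgg (0.41 ± 0.17, adjusted p = 0.0505) was the 1 member with an unadjusted p under 0.05, Orm1 was at 0.56 ± 0.29 and Saa1 at -0.43 ± 0.75. Without the libraries above 5000 CPM, 2 members were called higher, where 19.5% of genes were: Orm1 (0.55, adjusted p = 0.0429) and Fgg (0.40, adjusted p = 0.0263). Those libraries were left out for Saa1, with which Orm1 and Fgg moved, so these calls too are a description. Under RF the KO had 1 member called, Fgb, which fell by 0.50 ± 0.16 (adjusted p = 0.0391), where 3.02% of genes were called lower. Fga (-0.41 ± 0.15, adjusted p = 0.0937), Fgg (-0.44 ± 0.17, adjusted p = 0.112) and Saa1 (-2.19 ± 0.78, adjusted p = 0.0849) were not called. The Fgb call was lost without the libraries above 5000 CPM (-0.31, adjusted p = 0.198), of which the Cry WT RF library held 13537 CPM of Fgb, and without either series of Cry KO RF (adjusted p = 0.157 and 0.161), without series 6 of Cry WT RF (-0.30), with limma-voom as above and without the 5 libraries under 5000000 counts.

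Feeding was called for members in 1 of 4 backgrounds. In Cry KO, 8 of 10 members were lower under RF than under AL, where 13.1% of genes were called lower. All 3 fibrinogen chains were among them: Fgg fell by 1.01 ± 0.17 (adjusted p = 0.000115), Fgb by 0.90 ± 0.16 (adjusted p = 0.000184) and Fga by 0.72 ± 0.15 (adjusted p = 0.000854). Hp fell by 1.02 ± 0.28 (adjusted p = 0.00712) and Orm1 by 1.04 ± 0.29 (adjusted p = 0.00826). Saa1 fell by 2.65 ± 0.80 (adjusted p = 0.0153), Saa2 by 2.92 ± 0.87 (adjusted p = 0.0149) and Saa3 by 1.59 ± 0.51 (adjusted p = 0.0224). Orm2 (-1.41 ± 0.63, adjusted p = 0.11) and Lcn2 (-1.42 ± 0.82, adjusted p = 0.225) were not called. The members' median was -1.23 against -0.03 over all genes, and the same 8 were called without the libraries above 5000 CPM, where 13.8% of genes were. Without series 2 of Cry KO AL no member was called: Fgg was at -0.46 (adjusted p = 0.119), Fgb at -0.53 (adjusted p = 0.0727) and Saa1 at -0.76 (adjusted p = 0.705). Without series 1 Fgg was at -1.42. With the replicate series as a random effect (limma-voom) 0 of the 8 were called, and without the 5 libraries under 5000000 counts 4 were (Hp, Fga, Fgb and Fgg).

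Series 2 of Cry KO AL also stood apart from series 1 in other cells' markers. Its Kupffer cell marker sums were 96.2 to 230.2 CPM, below the 364 to 745 CPM of series 1. Its Kupffer cell median (186 CPM) was nevertheless above those of Cry KO RF series 5 (151 CPM) and Bmal1 KO RF series 4 (130 CPM). Its endothelial marker sums (5 genes) were 54.3 to 103 CPM against 268 to 296 CPM in series 1, with the lowest median of the 16 series, and its stellate sums 101 to 171 CPM against 204 to 230.2 CPM. In Cry KO, 3 of the 4 tested neutrophil markers were called lower under RF, where 13.1% of all genes were. These were S100a8 (-2.80), S100a9 (-2.83) and Cxcr2 (-2.93), and the other tested marker was not called. The neutrophil marker sum had its lowest, median and highest at 1.94, 8.57 and 88.0 CPM in Cry KO AL and at 0.311, 1.19 and 4.07 CPM in Cry KO RF. In Cry KO AL the lowest (ZT0) and highest (ZT8) libraries were both of series 1, and the next highest was at 11.5 CPM. Series 2 ran from 2.37 to 10.6 CPM. Their part in the fall of the members was not tested.

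In the 3 other backgrounds no member was called with RF, with 15.7% of genes called in Bmal1 WT, 0.545% in Bmal1 KO and 1.59% in Cry WT, and 0, 2 and 0 members at an unadjusted p under 0.05. Fgg differed by -0.16 ± 0.17 in Bmal1 WT, by 0.08 ± 0.17 in Bmal1 KO and by -0.16 ± 0.17 in Cry WT. Without the libraries above 5000 CPM, Saa2 in Cry WT was at -2.72 and past the threshold, where 3.85% of genes were called lower, and Saa1 was at -2.22. An RF library had been left out for its high Saa1, so these values too are a description.

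The difference of the Cry KO effect between the feedings was itself called for 2 members, where 5.48% of genes were called lower. The KO effect on Fgg was 0.41 under AL and -0.44 under RF, a difference of -0.85 ± 0.24 (adjusted p = 0.0264). For Fgb the effects were 0.23 and -0.50, a difference of -0.73 ± 0.22 (adjusted p = 0.0379). Fga (-0.51 ± 0.21, adjusted p = 0.133) and Saa1 (-1.75 ± 1.07, adjusted p = 0.316) were not called. Neither call was kept without the libraries above 5000 CPM (Fgg -0.65, adjusted p = 0.0536; Fgb -0.53, adjusted p = 0.0826) or without series 2 of Cry KO AL (-0.30 and -0.36). Leaving out each of the 8 series of the 4 groups in turn, both were called in 2 of 8 fits, those without series 1 of Cry KO AL or series 9 of Cry WT RF. Neither was called with limma-voom as above or without the 5 libraries under 5000000 counts.

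**Figure D2:**
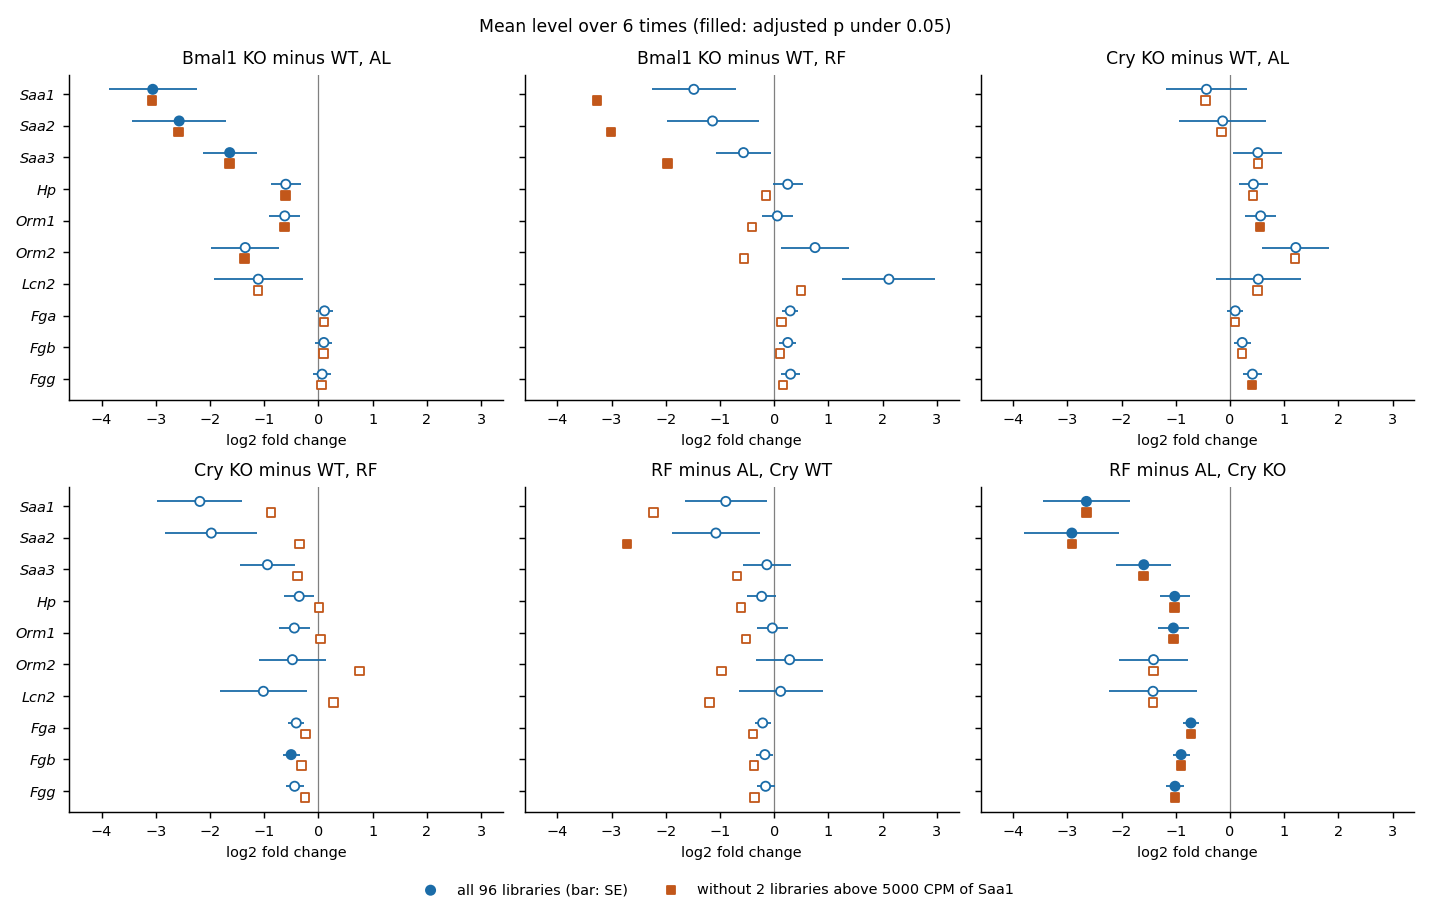
Log2 fold change of mean level over 6 times for the 10 members in 6 comparisons; circles with standard errors are the fit to all 96 libraries, squares the fit without the 2 libraries above 5000 CPM of Saa1, and filled symbols have an adjusted p under 0.05. In Cry KO, RF minus AL, 8 circles and 8 squares are filled, all below 0, while in Bmal1 KO minus WT under RF only the squares of Saa1, Saa2 and Saa3 are filled.

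The WT groups of the lines, which serve as references above, were also set against each other. No member was called under AL (20.5% of all genes were) or under RF (0.856%), with 3 and 1 members at an unadjusted p under 0.05 by edgeR. Under AL Saa1 was at 1.66 ± 0.77 in Cry WT against Bmal1 WT (adjusted p = 0.11). Without the libraries above 5000 CPM Fga was called higher (0.35, adjusted p = 0.0393), where 13.2% of genes were. As above, this call is a description. Without series 1 of Bmal1 WT AL 3 members were called higher, with Saa1 at 4.06 (adjusted p = 0.0164) and Saa2 at 4.59 (adjusted p = 0.0145).

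Time of day was tested with a 24 h cosine per group, and a gene was called rhythmic where the adjusted p was under 0.05 and the cosine spanned 0.5 log2 or more from trough to peak. In Cry WT AL, where 9.5% of genes were rhythmic, Fga (range 1.17 log2, peak at ZT23.6, adjusted p = 0.04) and Fgg (range 1.10 log2, peak at ZT23.5, adjusted p = 0.0403) were called. Fgb had a range of 0.91 log2 with its peak at ZT23.4 (adjusted p = 0.126). Fgg had its lowest mean at ZT12 (libraries at 1749 and 2393 CPM) and its highest at ZT20 (4980 and 5613 CPM). These times were picked as the extremes of the same values, so the gap between them is a description. Both ZT20 libraries (2574 and 1317 CPM of Saa1) and 1 at ZT0 (1866 CPM) were among the 11 libraries above 1000 CPM of Saa1, and the part of this in the rhythm was not tested. Without the libraries above 5000 CPM all 3 chains were called in this group (adjusted p = 0.00396 for Fga, 0.0263 for Fgb and 0.00351 for Fgg), where 10.7% of genes were. Their ranges hardly changed (1.185 log2 for Fga, 0.92 for Fgb and 1.12 for Fgg). Neither library is of this group, and both were left out for Saa1, with which the chains moved. These calls are therefore a description and not further support for the rhythm. In all libraries 0 members were called without either series of the group, with no series term or with no filter on low counts.

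In Bmal1 WT AL, where 13.5% of genes were rhythmic, no member was called in all libraries. Fga had a range of 0.93 log2 with its peak at ZT3.87 (adjusted p = 0.0926) and Fgg one of 0.94 log2 with its peak at ZT3.67 (adjusted p = 0.0676). Both were called without the libraries above 5000 CPM (adjusted p = 0.0197 and 0.011), where 14.7% of genes were. Their ranges stayed at 0.93 and 0.94 log2, and these calls too are a description. Fgg was at 1728 and 1740 CPM at ZT16 and at 2706 and 5510 CPM at ZT4, the latter from the library at 3519 CPM of Saa1. The trough recurred at ZT16 in 2 other groups: Fgg was at 1429 and 1612 CPM in Bmal1 WT RF and at 1550 and 1650 CPM in Cry WT RF, the lowest means of their groups. Neither group had a fibrinogen chain called rhythmic. In Bmal1 WT RF 0 members were called and 16.3% of genes, and Fgg had a range of 0.59 log2 (adjusted p = 0.37).

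In the knockouts the fibrinogen chains were not called. Bmal1 KO AL had 0.0254% of genes rhythmic and Cry KO AL 0%, both with 0 members. Cry KO RF had 11.9% of genes and 0 members, and there Fgg stayed between 1683 and 2595 CPM at all times with a fitted range of 0.26 log2. The lowest fibrinogen mean was at ZT20 in Bmal1 KO AL, Bmal1 KO RF and Cry KO RF, and at ZT12 in Cry KO AL.

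Calls of the inducible members rested on single libraries. In Bmal1 KO RF (7.83% of genes rhythmic) Saa3 was called with a range of 7.21 log2 and a peak at ZT23.9 (adjusted p = 0.00158), where its ZT0 library is the one at 428 CPM. Without the libraries above 5000 CPM its range was 0.42 log2 (adjusted p = 0.93). In Cry WT RF (25% of genes) Saa2 (range 9.65 log2, adjusted p = 0.0327), Saa3 (3.12 log2, adjusted p = 0.0479) and Orm2 (6.56 log2, adjusted p = 0.0261) were called, and without those libraries no member was. The high libraries of Saa1 were spread over the day: those above 1000 CPM were 3 at ZT0, 3 at ZT4, 2 at ZT12, 1 at ZT16 and 2 at ZT20.

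**Figure D3:**
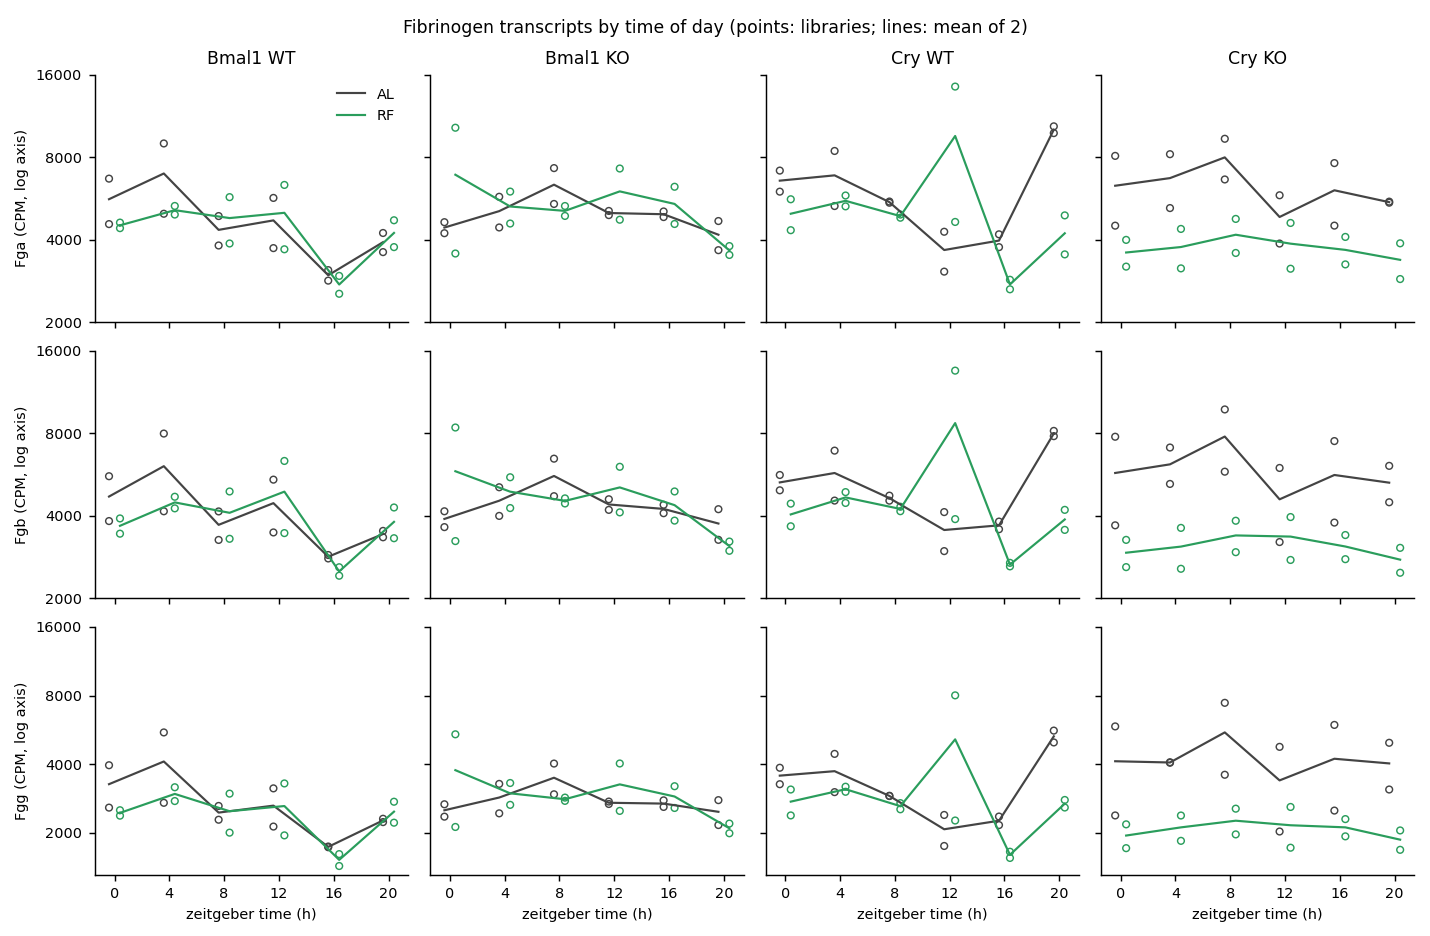
Fga, Fgb and Fgg (CPM, log axis) against zeitgeber time in WT and KO of both lines; points are libraries, lines the mean of 2, grey AL and green RF. In Cry WT AL the chains are lowest at ZT12 and highest at ZT20, in Bmal1 WT they are lowest at ZT16, and in Cry KO the AL means lie above the RF means at all 6 times.

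A difference of rhythm was called for 1 member in 8 comparisons. Saa3 differed between Bmal1 KO and WT under RF (adjusted p = 0.0176), where 1.76% of genes did, and this rested on the ZT0 library above 5000 CPM, without which no member was called. No member differed between KO and WT in the Bmal1 line under AL (1.25% of genes), or in the Cry line under AL (1.62%) or RF (5.1%). At an unadjusted p under 0.05 these had 0, 3 and 1 members by edgeR. Between RF and AL no member differed in Bmal1 WT (0% of genes), Bmal1 KO (0%), Cry WT (0.038%) or Cry KO (0%), with 1, 1, 8 and 0 members at an unadjusted p under 0.05. So the rhythm of Fga and Fgg called in Cry WT AL was not shown to differ from that of the KO or of RF.

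Members moved together between libraries of the same group and time. For each of the 48 pairs the log2 difference of each gene between the higher- and the lower-numbered series was taken, which removes the mean of the group and time but leaves any constant difference between the 2 series of a group. The 6 pairs of a group share these series, and the permutations treat the 48 pairs as independent. The Saa1 difference correlated with that of Saa2 with Pearson's r = 0.98 and Spearman's rho = 0.942, and both had the same sign in 41 of 48 pairs. For Orm2 r was 0.948 (rho 0.814), for Lcn2 0.933 (rho 0.902), for Hp 0.923 (rho 0.864) and for Orm1 0.906 (rho 0.791). Saa3 followed with 0.811 (rho 0.649), and the fibrinogen chains with 0.769 for Fgb (rho 0.623), 0.75 for Fgg (rho 0.601) and 0.745 for Fga (rho 0.57). All 9 Pearson permutation p-values were 1e-05, the smallest that 100000 permutations can give, as were their adjusted values over the 9 relations; the Spearman permutation p-values, adjusted, were at most 4e-05. With the mean difference of each group taken off, an alternative added after seeing the data, r ran from 0.719 (Fga) to 0.978 (Saa2). Without the 2 pairs that hold the libraries above 5000 CPM, which lie farthest from the median, r ran from 0.604 (Fga) to 0.969 (Saa2). Within the Bmal1 line r ran from 0.796 (Fga) to 0.983 (Saa2), and within the Cry line from 0.709 (Fga) to 0.976 (Saa2), over 24 pairs each.

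**Figure D4:**
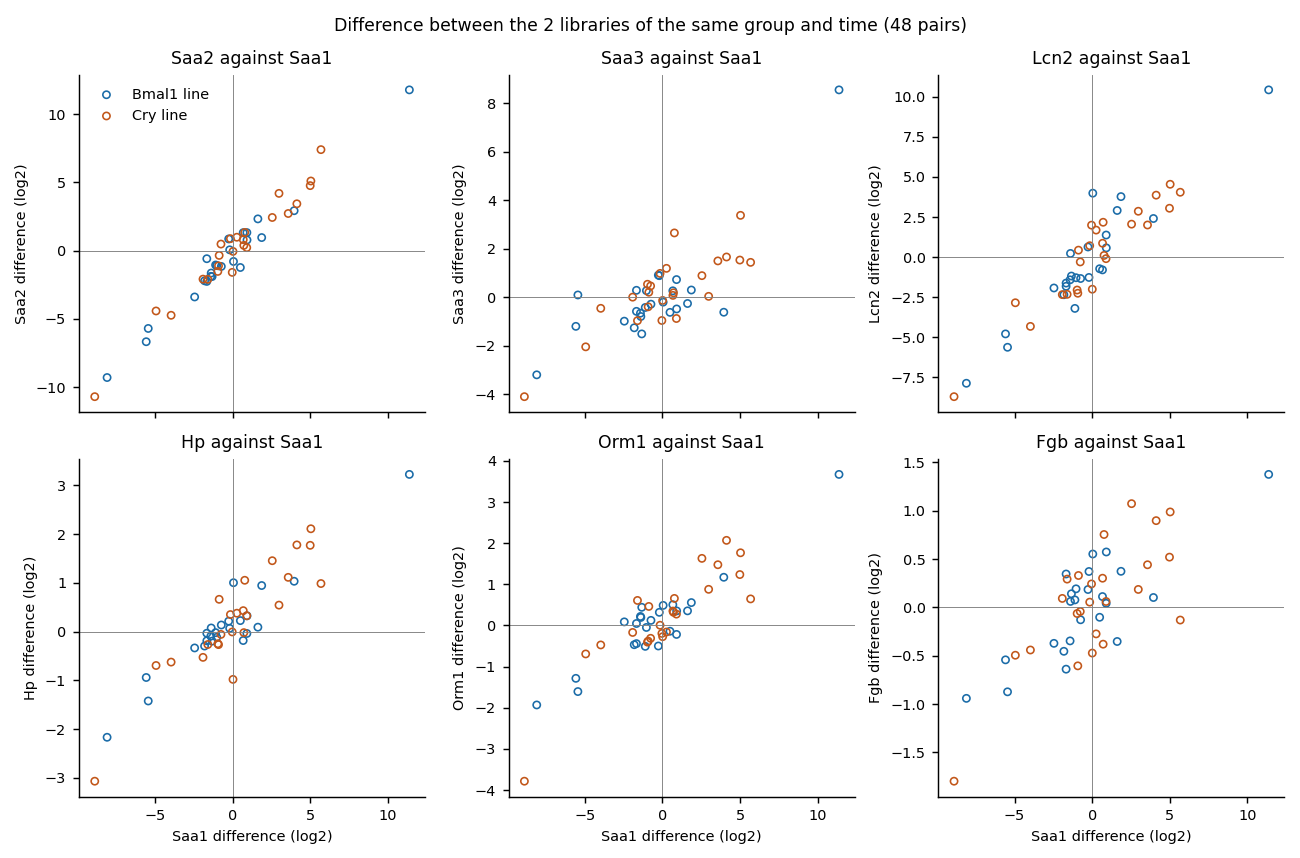
Log2 difference between the 2 libraries of a group and time for 6 members against that of Saa1, with 48 pairs coloured by line. Points follow Saa1 closely for Saa2 (r = 0.98), Lcn2 and Hp, and with a much smaller vertical scale for Fgb (r = 0.769).

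The serum amyloid genes did not keep 1 proportion. Saa2 counts were 0.374 of Saa1 counts at the median of the 66 libraries at or below 100 CPM of Saa1, 0.346 in the 19 between 100 and 1000 CPM, and 0.705 (0.579 to 0.985) in the 11 above 1000 CPM. Fibrinogen chains kept a steadier ratio: Fga over Fgg had a median of 1.80 over all libraries. Series 2 of Cry KO AL was again apart from series 1, with Fga over Fgg at 1.11 to 1.38 (median 1.27) in its 6 libraries against 1.76 to 2.02 in series 1, and Fga over Fgb at 0.904 to 1.04 against 1.14 to 1.22. Single libraries of other groups lay in these ranges, such as Cry WT RF series 6 at ZT20 (1.37 and 0.994). For Fga over Fgb they included both Cry WT AL libraries at ZT12 (1.035 and 1.028). The members' median share of the scaled library size was 2.70% in series 2 of Cry KO AL and 1.47% in its series 1. TMM factors were 0.723 to 0.862 in series 2 and 1.015 to 1.104 in series 1, and a lower factor raises this share.

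Over all 96 libraries and 15772 genes, the transcripts outside the 10 members most like Saa1 in log2 level were Prg4 (r = 0.87), Hpx (0.867), which encodes the haem carrier haemopexin, Itih4 (0.82), Serping1 (0.806) and Cpb2 (0.804). Those most like Fgb were Apcs (0.823), the mouse pentraxin serum amyloid P, Lrg1 (0.805), Ang (0.797), Itih4 (0.792) and Qsox1 (0.79), below Fga and Fgg at 0.977 each. Saa1 itself ranked lower for Fgb (r = 0.618). These correlations are descriptions over libraries that share group, time and depth.

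Of 22 other positive acute phase genes, all tested, the Bmal1 KO had 3 higher and 4 lower under AL. There 10.7% of all genes were lower, and 3847 of 15772 were called in either direction. The list median was -0.07 against 0.02 over all genes. Among those called were Orm3 (-2.67), Saa4 (-1.73), Serpina3m (-1.12) and the copper carrier Cp (0.69). Under RF 9 were higher and 3 lower, where 20.6% of genes were called in either direction, with the lipopolysaccharide binding protein Lbp at 1.30, Cp at 1.12, Itih3 at 0.87 and complement C3 at 0.72. The Cry KO had 2 higher and 1 lower under AL (Fgl1 1.13, Cd14 0.81, Serpina3g -0.73), where 33% of genes were called, and 2 lower under RF (Hamp -1.24, Saa4 -1.04), where 3.02% were lower. With RF in Cry KO 8 were lower and 0 higher, where 13.1% of genes were lower, among them Fgl1 (-1.85), Hamp (-1.61), Lrg1 (-1.57) and Apcs (-1.24), with a list median of -0.54 against -0.03 over all genes. In the other feeding comparisons 0 of 22 were called.

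Negative acute phase genes, whose plasma products fall in inflammation, were called lower in 5 of 8 cases in Bmal1 KO AL, with Alb (-1.77), Serpina6 (-0.98), Trf (-0.70) and Ttr (-0.54), where 10.7% of all genes were lower. The same count, 5 of 8, was lower in Cry WT against Bmal1 WT under AL, where 20.5% of genes were called in either direction. Under RF 1 was higher and 2 were lower in Bmal1 KO, where 20.6% of genes were called in either direction. In Cry KO AL 4 of 8 were higher (Fetub 0.88, Rbp4 0.66, Serpina6 0.60, Ahsg 0.33), where 33% of genes were called in either direction. With RF in Cry KO 2 were lower, where 13.1% of genes were. Of 20 genes of cytokine signalling 3 were lower in Bmal1 KO AL (Nfkbia -0.59, Il1rap -0.49, Rela -0.23), where 10.7% of genes were. In Cry KO AL 3 were higher and 2 lower, where 33% of genes were called in either direction. In Bmal1 KO RF 1 was higher and 2 lower, where 20.6% were called. In Cry WT against Bmal1 WT under AL 3 were higher, where 20.5% were called. Also called were 1 lower in Cry KO RF (3.02% of genes lower) and 1 higher with RF in Bmal1 KO (0.545% called in either direction). With RF in Cry KO 1 was higher and 3 were lower, the feedback inhibitor Socs3 among the lower ones (-0.96). There 13.1% of genes were lower, and 2863 of 15772 were called in either direction. The receptor gene Lifr was lower in the Cry KO under AL (-0.82) and RF (-1.11). Of the 6 cytokine genes 3 passed the filter on low counts and none of these was called in the 12 comparisons of mean level.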

How the data were processed

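Mouse liver RNA was made into libraries with the TruSeq Stranded mRNA kit and read as paired ends, per the labels' protocols. The deposited values are raw counts per Ensembl gene made by the authors, with 1 column per library and no normalisation. STAR 2.4.0i and the mm10 build are named in the submitters' processing notes. For the counting program, its strand setting and the gene models, the entry is: not given in the sources used here. Groups come from the labels (line, genotype, feeding), and 0 columns were left without a sample.

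Counts were scaled by TMM and filtered with filterByExpr (minimum count 10, minimum total 15) in edgeR 4.0.16 under R 4.3.3, leaving 15772 of the 35670 detected genes, with 99.94% of counts. The quasi-likelihood fit held 1 mean for each of 48 groups and times, and comparisons averaged the 6 times equally. Rhythm was a 24 h cosine per group with 1 intercept per replicate series. Tests were two-sided with Benjamini-Hochberg adjustment over all genes tested. Co-variation used log2(CPM + 0.5) with 100000 permutations. The models were also run on simulated counts with known changes. These held no series differences and no libraries with many genes raised together. They therefore do not check calls that turn on such series or libraries. Total counts were 1478963 to 35568856 (median 25422366), and the 2 libraries of a group and time differed beyond counting noise in every pair (chi-square per degree of freedom 10.14 to 744.4).

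The members, the lists of related genes and the cell markers were chosen with earlier results of these data known. Beside the members, the rule named up to 4 genes per list with the smallest p in each comparison and the 5 genes most like Saa1 and Fgb; the text gives a selection. Alternatives were the compared groups alone, RLE scaling, fits without the filter or with a minimum mean of 1 CPM, DESeq2 1.42.0, a robust fit, limma 3.58.1 (voom) with the series as a random effect, a block for the replicate number, omission of each series, time as 6 levels, no minimum range, no series term, another offset (5 CPM) and leaving out the 2 libraries above 5000 CPM of Saa1. Leaving out the 5 libraries under 5000000 counts and taking off each group's mean pair difference were added after the data were seen. Of the marker lists whose counts the report does not give, 3 of 8 B and T cell markers were lower in Bmal1 KO under RF and 2 of 8 lower with RF in Cry KO, 1 of 8 was higher in each of 3 comparisons, 1 or 2 of 5 stellate and 1 to 3 of 4 cholangiocyte markers were called in 2 and 6 comparisons, and 0 adipocyte or endothelial markers in any of the 12. Of the other lists, 1 of 7 Kupffer cell markers was lower in each of 3 comparisons, 1 or 2 of 6 hepatocyte markers were called in 5, 1 and 2 of 4 neutrophil markers were higher in Cry KO and in Cry WT against Bmal1 WT under AL, and 1 or 2 of 2 exocrine pancreas markers were higher in 3.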

Additional observations from a re-analysis of the deposited data

Results flagged for a closer look

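The Cry KO effect was called different between the feedings for 2 of 3 fibrinogen chains. The difference of the effect, RF minus AL, was -0.73 for Fgb and -0.85 for Fgg on the log2 scale by a test of the difference itself in edgeR's quasi-likelihood fit. Fga, at -0.51 (adjusted p = 0.133), was not called by that fit. Both calls were lost without the 2 libraries above 5000 CPM of Saa1, in 6 of 8 fits that left out 1 series, with limma-voom and without the 5 libraries under 5000000 counts.

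The rhythm of Saa3 differed between Bmal1 KO and WT under RF, with an adjusted p of 0.0176 for the difference in the same fit. In the KO 1 library at ZT0 held 428 CPM of Saa3 and the 11 others 0.587 to 1.43 CPM.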

How the results depend on the processing

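Values below are members called of 10, against 3 in Bmal1 KO minus WT under AL, 0 in that comparison under RF, 0 in Cry KO minus WT under AL, 1 under RF, 8 in RF minus AL of Cry KO, 2 in the Cry KO effect between feedings and 0 in the other comparisons of levels. Without the 2 libraries above 5000 CPM of Saa1 the counts were 6 in Bmal1 KO under AL and 3 under RF, 2 in Cry KO under AL and 0 under RF, 1 in RF minus AL of Cry WT, 0 in the Cry KO effect and 1 in Cry WT minus Bmal1 WT under AL; rhythmic members were 0 in Bmal1 KO RF, 2 in Bmal1 WT AL and 0 in Cry WT RF, and 0 differed in rhythm between Bmal1 KO and WT under RF. These libraries were left out for their Saa1 level, with which the other members moved. They also enter the shared estimate of the spread, so these counts are descriptions in every group. For the other alternatives of this section the share of all genes called is not given. Their counts show how calls moved and are not a result about the members. With the replicate series as a random effect (limma-voom) 0 members were called in Bmal1 KO under AL, Cry KO under RF, RF minus AL of Cry KO and the Cry KO effect. With only the groups compared the counts were 5, 0, 3 and 0 in these comparisons. DESeq2 called 1 in Bmal1 KO under RF, 1 in Cry KO under AL, 2 in Cry KO under RF and 1 in Cry WT minus Bmal1 WT under AL. RLE size factors, a mean of at least 1 CPM and the robust fit each called 1 in Cry KO under AL. Without the 5 libraries under 5000000 counts the counts were 0 in Cry KO under RF, 4 in RF minus AL of Cry KO and 0 in the Cry KO effect; both Cry KO RF libraries at ZT4 are among the 5, so ZT4 was left out of the comparisons of that group.

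With no filter on low counts the counts were 7 in Bmal1 KO under AL, 5 under RF, 7 in Cry KO under AL, 10 under RF, 6 in RF minus AL of Bmal1 WT and 6 of Bmal1 KO, 2 of Cry WT, 7 in the Bmal1 KO effect, 10 in the Cry KO effect, and 5 and 7 in Cry WT minus Bmal1 WT under AL and RF; rhythmic members were 0 in Cry WT AL and 1 in Cry WT RF. The prior degrees of freedom of the quasi-likelihood fit were infinite there and 4.8 with the filter. Without the share of all genes called in that fit, its higher counts cannot be read as particular to the members. With no replicate series term rhythmic members were 6 in Bmal1 KO RF, 1 in Bmal1 WT AL, 0 in Cry WT AL and 7 in Cry WT RF, and 5 differed between Bmal1 KO and WT under RF. With time as 6 levels they were 2 in Bmal1 KO RF and 10 in Cry WT RF. Beyond fewer samples or genes in a fit, the cause was not tested.

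With each series omitted in turn the counts were 0 to 5 in Bmal1 KO under AL and 0 to 2 under RF, 0 to 4 in Cry KO under AL and 0 to 1 under RF, 0 to 8 in RF minus AL of Cry KO, 0 to 6 in the Cry KO effect and 0 to 3 in Cry WT minus Bmal1 WT under AL. Without series 1 of Bmal1 WT AL 0 of the 3 serum amyloid calls were left and Saa2 changed sign (0.14). Without series 8 of Bmal1 KO AL Saa2 (-2.55) and Saa3 (-1.55) were not called, and without its series 1 Saa2 (-3.19) was not. Without series 2 of Cry KO AL 0 of the 8 calls in Cry KO were left; without series 3 of Cry KO RF 4 were left and without its series 5, 5. Rhythmic members ranged from 0 to 5 in Bmal1 KO RF (5 without series 2), from 0 to 0 in Cry WT AL and from 0 to 8 in Cry WT RF (8 without series 9). Differences in rhythm ranged from 0 to 4 for Bmal1 KO minus WT under RF, 0 to 3 for Cry KO minus WT under RF, 0 to 1 for RF minus AL of Bmal1 KO and 0 to 8 of Cry WT.

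With the replicate number as a block (replicate block), the Bmal1 KO comparisons called 3 members under AL, with Saa1 at -2.78, and 0 under RF, so no call changed. Libraries of the same number and time correlated in their deviations above 0.1 in 4 of 6 pairs in each feeding. Under AL r was -0.169 to 0.434 (median 0.125) and under RF -0.0393 to 0.275 (median 0.129). These values do not settle whether the numbers pair libraries, and the main fit did not pair them.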
